A study of Mus musculus with 3 samples.

Results

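The genes described are Rrm1, Rrm2, Rrm2b, Tyms, Tk1, Dut and Dctd, 7 of the 32247 gene symbols in the matrix, which encode enzymes that supply deoxynucleotides for DNA. They were named as a list, for a comparison of decidual and natural killer (NK) cells, after values of these same cells were known, so their levels and ratios below are a description and carry no test. The cells came from whole mouse uterus at pregnancy day 7.5, dissociated with trypsin and captured in droplets with 3' chemistry. Females were housed to the age of 8 weeks before mating, and the labels give no strain, genotype or number of animals for this sample. The series holds 3 samples. A sample with Prl8a2-iCre and a Sun1-GFP reporter and a sample with Sun1-GFP and no Cre are not analysed here. Sequencing gave 16848794 UMIs (molecular tags, each standing for 1 transcript that was captured) over 2775 barcodes, and 1822 cells with 14689368 UMIs were kept, with a median of 4519 UMIs per cell. With 1 library there is no replicate, so the exact 95% intervals given in brackets account for counting error alone, and cells are not replicates of a condition.

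Cells were grouped by marker genes, without the 7 genes or any other list gene described here. The class called decidual-like held 148 cells in a Bmp2-rich cluster of 77 cells and a Bmp2-poor cluster of 71 cells. The class called NK-like held 315 cells in a granzyme-rich cluster of 146 cells and a granzyme-poor cluster of 169 cells. The class called undifferentiated stroma-like held 420 cells in clusters of 240 and 180 cells. Tdo2, tryptophan dioxygenase and a classical decidual marker, stood at 2889 CPM (UMIs of the gene per 1000000 UMIs of the group) in the Bmp2-rich and 1420 CPM in the Bmp2-poor decidual-like cluster, against 27.3 and 34.8 CPM in the undifferentiated clusters. The gap junction gene Gja1 stood at 1194 and 473 CPM in the same decidual-like clusters, against 301 and 145 CPM in the undifferentiated clusters. The deiodinase gene Dio3 was at 854 CPM in the Bmp2-rich but 34.9 CPM in the Bmp2-poor cluster, and the decidual prolactins went against the label: Prl8a2 was at 1.02 and 0 CPM and Prl3c1 at 0 in both. Cdh11, another of the 8 decidual markers, was lower in the decidual-like clusters, at 243 and 929 CPM, than in the undifferentiated clusters, at 2100 and 1884 CPM. Htra1, a further decidual marker, was lower too, at 5.08 and 15.3 CPM against 119 and 45.5 CPM, while Aoc1 was higher, at 54.8 and 15.3 CPM against 5.12 and 0 CPM. The 12 NK markers summed to 29.1 CPM in decidual-like cells and 12066 CPM in NK-like cells, and Ncr1 was at 0 in both decidual-like clusters. The undifferentiated stroma markers, several of them collagens, summed to 5236 CPM in decidual-like and 5310 CPM in undifferentiated stroma-like cells and so did not separate these classes, although Dpt among them was at 4.06 and 0 CPM in the decidual-like clusters against 506 and 134 CPM in the undifferentiated clusters.

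Ribonucleotide reductase makes deoxynucleotides by reducing ribonucleotides, and it is built from the large catalytic subunit Rrm1 and a small subunit, either Rrm2, which proliferating cells make for S phase and destroy at the end of mitosis, or Rrm2b, a p53-inducible form used outside S phase and for repair and mitochondrial DNA. Thymidylate is made separately. Thymidylate synthase (Tyms) methylates dUMP, dUTPase (Dut) produces dUMP from dUTP and so keeps uracil out of DNA, dCMP deaminase (Dctd) produces dUMP from dCMP, and cytosolic thymidine kinase (Tk1) makes thymidylate from salvaged thymidine. In the rodent uterus stromal cells divide and then become polyploid as they turn into decidual cells, while uterine NK cells also divide in the early decidua.

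Over clusters Rrm1 was the member most like Rrm2, and Tyms the one most like Tk1, so the bases before their starts are shown to let the sequences of the pairs be compared. They are RefSeq promoter windows on GRCm38.p6, up to 250 bases before the gene's start on the gene's own strand, shortened where an annotated exon reaches in. Capitals mark CCAAT on either strand (ATTGG on the strand shown), the box that the factor NF-Y binds. The windows are chr7:102441445-102441694 on the plus strand for Rrm1, chr12:24708004-24708240 on the plus strand for Rrm2, chr5:30073626-30073875 on the minus strand for Tyms and chr11:117826093-117826264 on the minus strand for Tk1.
Rrm1: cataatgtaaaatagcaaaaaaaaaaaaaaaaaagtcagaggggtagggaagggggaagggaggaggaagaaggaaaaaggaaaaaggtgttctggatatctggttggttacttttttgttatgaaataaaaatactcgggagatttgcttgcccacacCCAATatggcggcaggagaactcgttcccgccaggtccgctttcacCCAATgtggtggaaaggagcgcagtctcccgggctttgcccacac
Rrm2: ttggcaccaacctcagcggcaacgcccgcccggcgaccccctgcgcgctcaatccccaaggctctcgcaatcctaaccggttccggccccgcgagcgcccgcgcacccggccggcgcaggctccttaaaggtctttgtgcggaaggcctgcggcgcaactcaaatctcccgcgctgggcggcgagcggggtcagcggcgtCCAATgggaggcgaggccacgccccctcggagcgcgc
Tyms: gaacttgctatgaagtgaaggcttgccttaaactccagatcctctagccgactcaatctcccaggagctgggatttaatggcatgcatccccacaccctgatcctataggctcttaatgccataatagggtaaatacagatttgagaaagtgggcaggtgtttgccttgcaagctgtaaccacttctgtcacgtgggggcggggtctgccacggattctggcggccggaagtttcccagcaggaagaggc
Tk1: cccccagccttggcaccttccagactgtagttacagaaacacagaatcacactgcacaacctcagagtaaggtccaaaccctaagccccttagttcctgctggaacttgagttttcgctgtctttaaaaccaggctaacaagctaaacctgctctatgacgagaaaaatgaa
The Rrm1 window held 2 CCAAT boxes and the Rrm2 window held 1, while the Tyms and Tk1 windows held 0. The Rrm2 and Tk1 windows are 237 and 172 bases long after shortening, and their counts of matches were the same over the full 250 bases. Of 32851 RefSeq windows of 250 bases, 33.8% held at least 1 such box and 10.1% held at least 2. None of these 4 windows held the E2F spellings TTTCCCGC, TTTCGCGC, TTTGCCGC or TTTGGCGC on either strand, which 1.86% of all windows held. A match is a description of letters and not a measured site, and no match says only that these letters are not in this window. For 6 of the 7 members a RefSeq window was matched by symbol.

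The members lie on 7 chromosomes, by the GENCODE M21 annotation of GRCm38, in which the matrix identifier of each member was found. Rrm1 (ENSMUSG00000030978) spans chr7:102441695-102469771 and Rrm2 (ENSMUSG00000020649) chr12:24708241-24714146, both on the plus strand. Rrm2b (ENSMUSG00000022292) spans chr15:37923952-37961318 on the minus strand and overlaps the antisense gene Gm49085 and the pseudogene Gm3362. Tyms (ENSMUSG00000025747) spans chr5:30058202-30073617 on the minus strand. Tk1 (ENSMUSG00000025574) spans chr11:117815526-117826092 on the minus strand and overlaps Afmid on the plus strand. Dut (ENSMUSG00000027203) spans chr2:125247190-125258608 and Dctd (ENSMUSG00000031562) chr8:48099092-48153233, both on the plus strand. Each UMI counts a transcript anywhere in a gene's exons as the authors' annotation had them, so values are per gene and not per isoform, and the sources used here do not say how reads in these overlaps, or in those of Rrm1 with Gm45399 and of Tk1 with Gm20708, were assigned.

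All 7 members were detected. Over all 1822 cells Dut held 1591 UMIs, Rrm2 1571, Rrm1 1488, Rrm2b 377, Tyms 314, Tk1 246 and Dctd 165. A UMI was seen in 23.8% of cells for Dut, 23.2% for Rrm1, 18.3% for Rrm2, 15.7% for Rrm2b, 9.77% for Tyms, 7.41% for Dctd and 5.82% for Tk1. The 3 most counted members thus gave most of the precision below, while the decidual-like values of Tk1, Tyms, Rrm2b and Dctd rest on 6, 22, 26 and 38 UMIs.

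The reductase genes Rrm1 and Rrm2 were highest in decidual-like cells among the 10 named classes. Rrm2, the S phase small subunit, stood at 685 CPM (interval 643 to 729) in decidual-like cells, from 988 UMIs. The NK-like cells had 74.7 CPM (66.3 to 83.9), the pericyte-like cells 58.5 (32.7 to 96.5), the phagocyte-like cells 41.0 (30.7 to 53.8) and the epithelium-like cells 32.9 (28.1 to 38.2). Endothelium-like cells had 25.1 CPM (13.4 to 42.9), T cell-like cells 24.9 (5.13 to 72.7), undifferentiated stroma-like cells 18.8 (12.6 to 27.0) and mesothelium-like cells 14.0 (5.64 to 28.9). B cell-like cells had 0 UMIs, with an interval up to 84.7 CPM. The decidual-like interval lay apart from the interval of every other named class, whereas those of neighbours below it overlapped from NK-like cells on down.

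Rrm1, the catalytic subunit, followed a similar but flatter order. It stood at 349 CPM (319 to 381) in decidual-like cells, 150 (138 to 162) in NK-like cells and 106 (80.0 to 138) in endothelium-like cells. Phagocyte-like cells had 56.8 CPM (44.5 to 71.6), T cell-like cells 49.7 (18.3 to 108), epithelium-like cells 37.7 (32.6 to 43.5), undifferentiated stroma-like cells 36.9 (27.9 to 47.8) and mesothelium-like cells 32.1 (18.3 to 52.1). B cell-like and pericyte-like cells had 1 and 4 UMIs, at 23.0 and 15.6 CPM. Decidual-like cells stood apart from NK-like cells, and the NK-like and endothelium-like intervals only just met.

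Rrm2b, the alternative small subunit, differed less between classes than Rrm2 did. Its level was 18.0 CPM (11.8 to 26.4) in decidual-like cells, 20.1 (15.9 to 25.1) in NK-like cells and 31.1 (22.9 to 41.2) in undifferentiated stroma-like cells. The other named classes lay between 16.6 CPM in T cell-like and 45.9 CPM in B cell-like cells, each from 2 UMIs, with mesothelium-like cells at 42.1 CPM (26.1 to 64.4) from 21 and epithelium-like cells at 29.9 (25.4 to 35.1). The intervals of neighbours in this order all overlapped, but that of NK-like cells lay below those of epithelium-like and mesothelium-like cells.

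**Figure D1:**
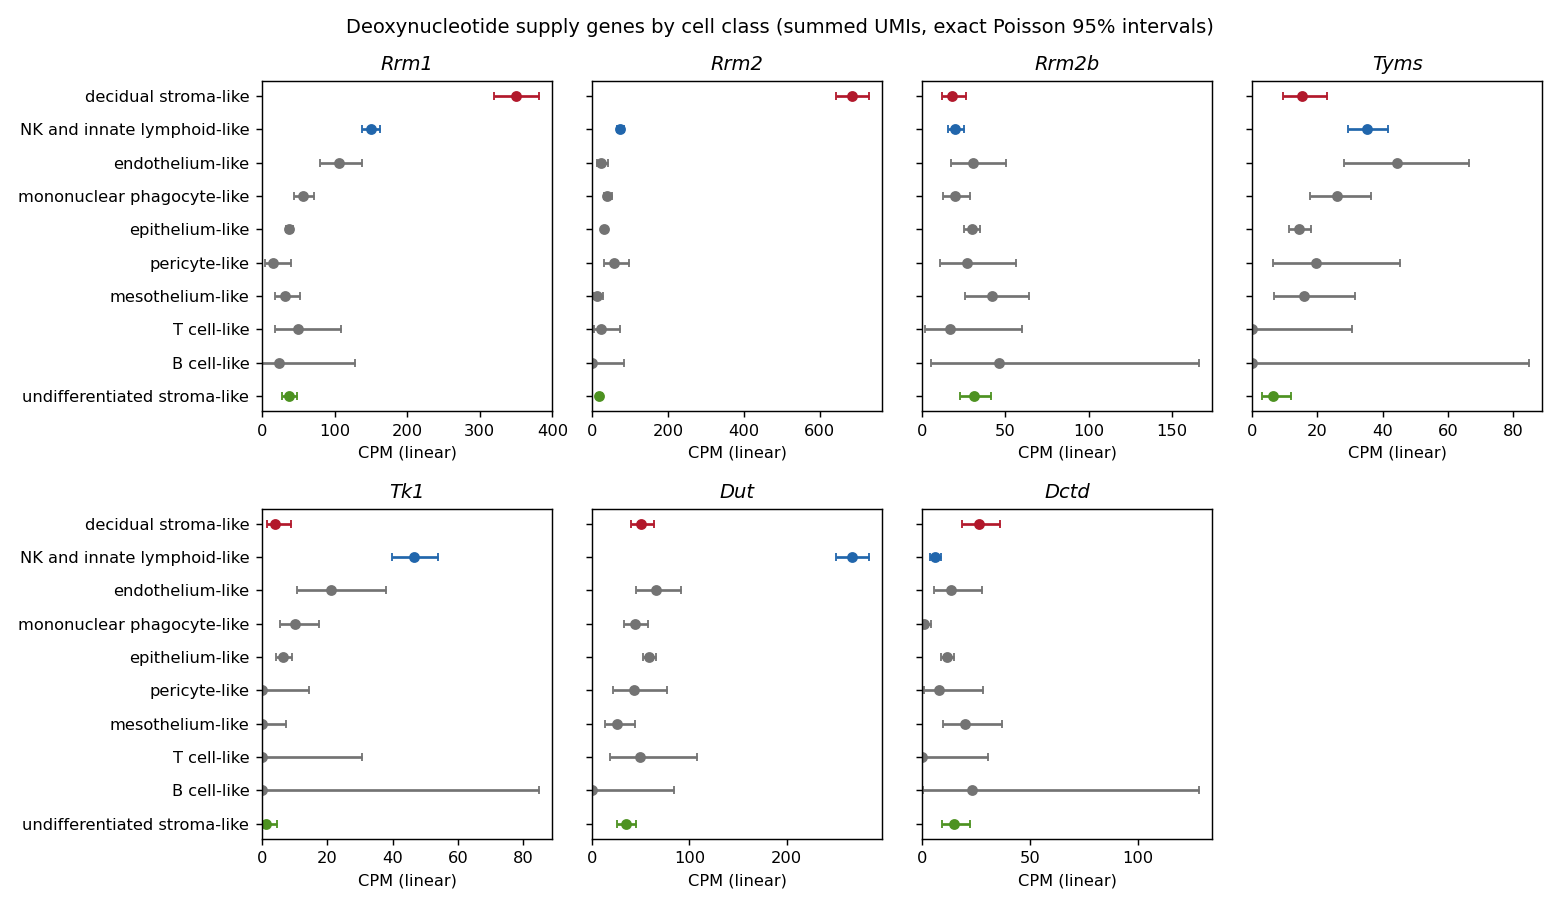
Level of each of the 7 genes in the 10 named cell classes, as CPM of summed UMIs on a linear axis that differs between panels. Points are class sums with exact Poisson 95% intervals for counting error. Decidual stroma-like cells (red, top row) stand highest for Rrm1 at 349 CPM and Rrm2 at 685 CPM, while NK and innate lymphoid-like cells (blue) stand highest for Tk1 at 46.5 CPM and Dut at 267 CPM.

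The thymidylate genes had another order. Dut stood at 50.6 CPM (39.6 to 63.6) in decidual-like cells and 267 (251 to 284) in NK-like cells, the highest named class. All other named classes lay at or under the 65.6 CPM (45.4 to 91.7) of endothelium-like cells, with undifferentiated stroma-like cells at 35.0 (26.3 to 45.6), and the decidual-like interval overlapped those of its neighbours in this order. Tk1 stood at 4.16 CPM (1.53 to 9.05) in decidual-like cells, from 6 UMIs, and at 46.5 (39.9 to 53.8) in NK-like cells. Endothelium-like cells had 21.2 CPM of Tk1 (10.6 to 38.0), phagocyte-like cells 10.3 (5.46 to 17.5) and epithelium-like cells 6.45 (4.44 to 9.06), undifferentiated stroma-like cells had 2 UMIs, and mesothelium-like, pericyte-like, T cell-like and B cell-like cells had 0.

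Tyms was highest in endothelium-like cells, at 44.4 CPM (28.1 to 66.6), with NK-like cells at 35.3 (29.6 to 41.7) and phagocyte-like cells at 26.0 (17.9 to 36.6), 3 classes whose intervals overlapped in turn. Decidual-like cells had 15.2 CPM (9.55 to 23.1), near pericyte-like cells at 19.5, mesothelium-like cells at 16.04 and epithelium-like cells at 14.5 (11.4 to 18.2). Undifferentiated stroma-like cells had 6.47 CPM (3.104 to 11.9), from 10 UMIs, which overlapped the decidual-like interval. Dctd, the deaminase that feeds the synthase, was at 26.3 CPM (18.6 to 36.1) in decidual-like cells, the highest of the named classes, but its interval overlapped that of mesothelium-like cells at 20.1 (9.62 to 36.9) and of undifferentiated stroma-like cells at 14.9 (9.44 to 22.3). NK-like cells had 6.01 CPM (3.81 to 9.01) of Dctd and phagocyte-like cells 0.789, from 1 UMI.

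A cluster of 36 cells was left unnamed, with the imprinted genes H19 and Igf2 and the gene Hand1 among its 10 leading genes and a median of 1266 UMIs per cell. It held 353 CPM of Dut (212 to 551), 186 of Rrm2 (89.1 to 342), 130 of Rrm1 (52.3 to 268), 74.3 of Tyms (20.2 to 190) and 55.7 of Tk1 (11.5 to 163). Its Dut, Tyms and Tk1 values were above those of every named class, but each of the 3 intervals includes the value of the highest named class.

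Decidual-like cells were then set against NK-like cells, a pair of classes that both held mitosis transcripts. A gene was compared if both classes together held at least 50 UMIs, and it was counted as higher or lower at a ratio of CPM of at least 2-fold whose interval leaves out 1. By that rule 3 of the 7 members were higher in decidual-like cells (Rrm2, Rrm1 and Dctd), 3 were lower (Tk1, Dut and Tyms) and Rrm2b was neither. Of all 8608 genes compared, 18.7% were higher and 24% lower, and since this contrast served to choose the members nothing is read from their count. Over all genes compared the median log2 ratio was -0.21.

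Rrm2 was 9.17-fold higher (8.03 to 10.5) in decidual-like than in NK-like cells, and Rrm1 was 2.33-fold higher (2.07 to 2.64). The Rrm1 call was close to the 2-fold limit: it ended against the granzyme-rich NK-like cluster alone, at a log2 ratio of 0.99. It also ended with at most 10% of mitochondrial UMIs per cell, at 0.96, but there 110 of the cells named decidual-like formed a cluster with 15.1 CPM of Tdo2 and 36.7 CPM of Rrm1, beside a cluster of 50 cells with 3241 CPM of Tdo2 and 455 CPM of Rrm1. Dctd was 4.38-fold higher (2.55 to 7.71), from 38 against 23 UMIs. On the other side, Tk1 was 11.2-fold lower (5.04 to 30.9), Dut 5.28-fold lower (4.16 to 6.79) and Tyms 2.31-fold lower (1.47 to 3.81). The Rrm2b ratio was 0.896, with an interval (0.551 to 1.41) that holds 1. The reductase pair and the genes of thymidylate synthesis and salvage thus stood on opposite sides, with Dctd, also a dUMP source, on the side of the reductase.

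Depth and mitochondrial share moved with this comparison. The median cell held 6839.5 UMIs in decidual-like and 5807 UMIs in NK-like cells, and the median mitochondrial share of UMIs was 12.2% in decidual-like and 3.45% in NK-like cells. With mitochondrial genes left out of the totals the log2 ratio was 3.28 for Rrm2 and 1.30 for Rrm1, beside 3.20 and 1.22 with them. With every cell thinned to 2000 UMIs it was 3.17 for Rrm2, 1.34 for Rrm1 and -2.07 for Dut, while Tyms, Tk1, Rrm2b and Dctd then fell under 50 UMIs.

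**Figure D2:**
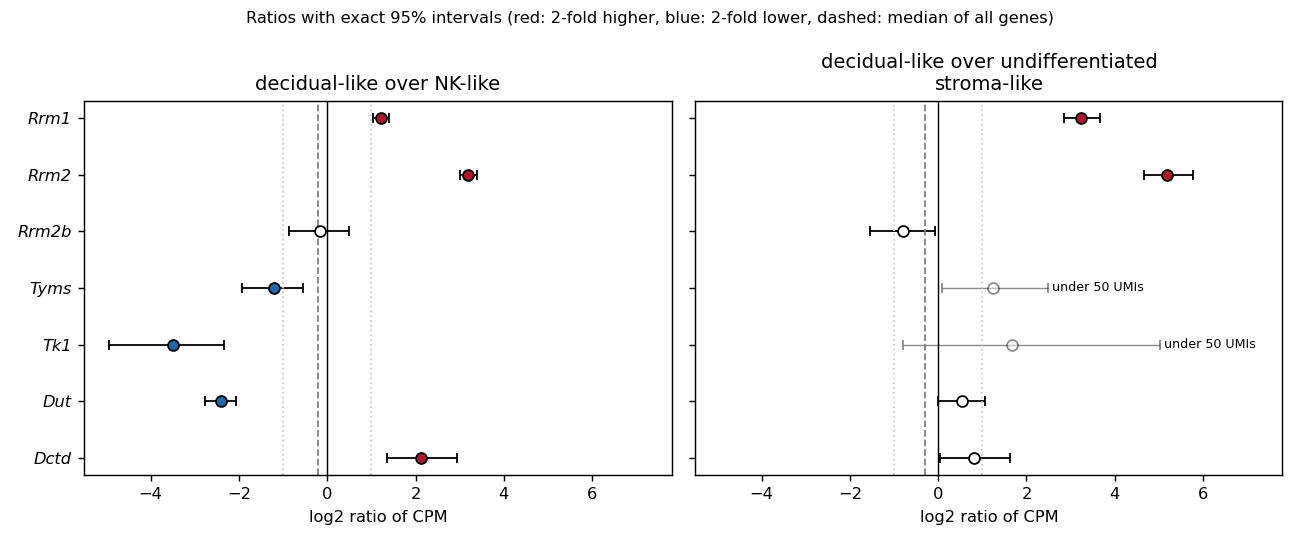
Log2 ratio of CPM of each gene in decidual-like over NK-like cells (left) and over undifferentiated stroma-like cells (right), with exact 95% intervals for counting error. Filled red points are at least 2-fold higher and filled blue points at least 2-fold lower, open points are neither, grey points hold under 50 UMIs, dotted lines mark 2-fold and the dashed line is the median of all genes compared (-0.21 and -0.31). Rrm2 and Rrm1 lie to the right in both panels, and Tk1, Dut and Tyms lie to the left only in the panel against NK-like cells.

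The proportion of the genes to each other also differed between the classes. Per 100 UMIs of Rrm1 and Rrm2 together, decidual-like cells held 6.77 UMIs of Tyms, Tk1 and Dut together (5.48 to 8.28), against 156 (143 to 170) in NK-like cells and 76.7 (54.8 to 107) in undifferentiated stroma-like cells. Epithelium-like cells held 113 (98.1 to 131), endothelium-like cells 100 (70.4 to 142), mesothelium-like cells 91.3 (48.1 to 173), pericyte-like cells 84.2 (40.5 to 173) and phagocyte-like cells 82.3 (62.7 to 108). The T cell-like and B cell-like classes had 9 and 1 UMIs of the reductase pair, too few to place. The balance of the small subunits also differed. Rrm2 UMIs per Rrm2b UMI were 38.0 (25.8 to 58.5) in decidual-like cells, 3.71 (2.88 to 4.84) in NK-like cells and 0.604 (0.367 to 0.978) in undifferentiated stroma-like cells. Rrm2 UMIs per Rrm1 UMI were 1.96 (1.76 to 2.19) in decidual-like cells, 0.499 (0.432 to 0.576) in NK-like cells and 0.509 (0.314 to 0.809) in undifferentiated stroma-like cells. Pericyte-like cells were above decidual-like cells, at 3.75 (1.19 to 15.5) from 15 against 4 UMIs, with an interval that includes the decidual-like value. The remaining named classes with enough UMIs to place lay below decidual-like cells. Such a ratio depends on how well each transcript is captured, and it is used here only to compare classes.

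**Figure D3:**
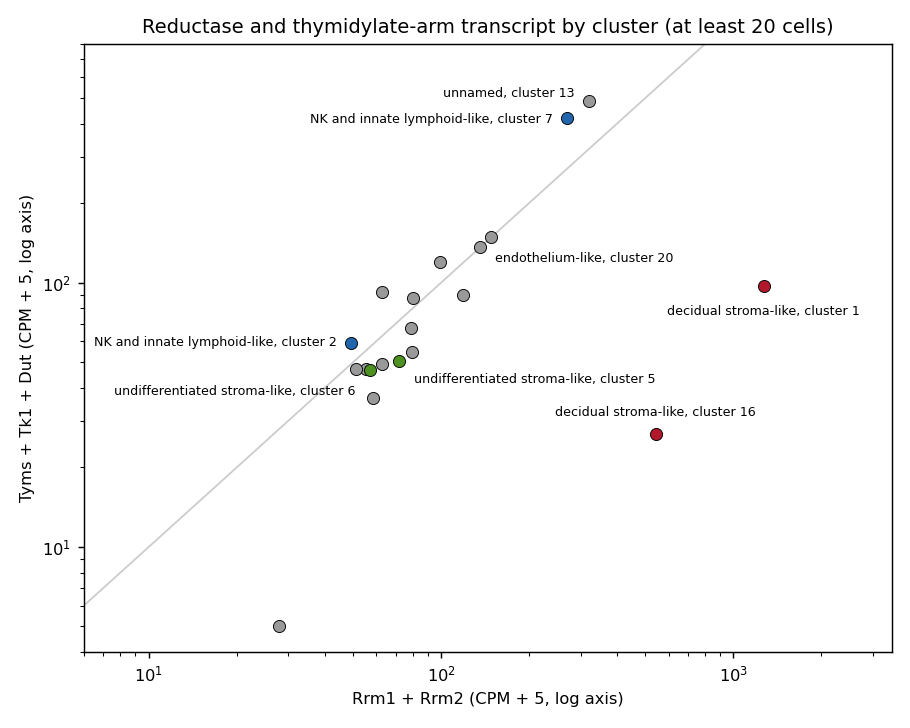
Summed CPM of Rrm1 and Rrm2 (horizontal) against summed CPM of Tyms, Tk1 and Dut (vertical) in the 20 clusters of at least 20 cells, both on log axes after adding 5 CPM. The grey line marks equal sums. The Bmp2-rich (cluster 1) and Bmp2-poor (cluster 16) decidual-like clusters lie far to the right of the line, while the granzyme-rich NK-like cluster (cluster 7) and the unnamed cluster (13) lie above it.

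Against undifferentiated stroma-like cells, the nearest class in tissue origin, the reductase pair was again higher and no member was lower by the rule. Rrm2 was 36.5-fold higher (25.2 to 54.7) in decidual-like cells, from 988 against 29 UMIs, and Rrm1 was 9.46-fold higher (7.19 to 12.7), from 504 against 57. Dctd had a ratio of 1.77 (1.03 to 3.11) and Dut of 1.45 (1.004 to 2.10), both short of 2-fold. Rrm2b had a ratio of 0.580 (0.345 to 0.953), a log2 ratio of -0.79. With each cell weighted equally its log2 ratio was -1.48, which counted as lower by 2-fold alone, since that setting has no interval. Tyms had 22 against 10 UMIs and Tk1 had 6 against 2, too few to be compared. Of the 5 members compared 2 were higher and 0 lower, where 8.76% of all 7466 genes compared were higher and 18.4% lower, and the median log2 ratio over those genes was -0.31. The median cell held 6839.5 UMIs in decidual-like and 3304 in undifferentiated stroma-like cells, and after thinning to 2000 UMIs the log2 ratios were 5.29 for Rrm2 and 2.90 for Rrm1. Mitochondrial genes took a median of 12.2% of UMIs in decidual-like and 4.33% in undifferentiated stroma-like cells, and its part in the ratios beyond the scaling above was not tested.

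Counted as cells with at least 1 UMI, the contrast between Rrm2 and Dut was of the same kind. Rrm2 was seen in 66.2% of decidual-like cells, 22.5% of NK-like cells and 5.71% of undifferentiated stroma-like cells. Cells were then thinned to 2000 UMIs, which left 131 decidual-like, 267 NK-like and 312 undifferentiated stroma-like cells, without 17, 48 and 108 shallower ones of these classes. Thinned, an Rrm2 UMI was seen in 47.3% of decidual-like (38.5 to 56.2), 6.74% of NK-like (4.04 to 10.4) and 2.24% of undifferentiated stroma-like cells (0.907 to 4.57). Rrm1 was seen in 62.2% of decidual-like, 34.0% of NK-like and 12.1% of undifferentiated stroma-like cells, and thinned in 37.4% of decidual-like (29.1 to 46.3), 13.5% of NK-like (9.63 to 18.2) and 8.33% of undifferentiated stroma-like cells (5.52 to 11.97). Mesothelium-like cells, which line the outside of the uterus and take no part in decidua, served as a class to compare with. Whether their UMIs are free RNA in droplets or their own transcripts was not tested. At a median depth of 5403 UMIs, 6.74% of them had an Rrm2 UMI, and 3.70% (0.770 to 10.4) after thinning. For Rrm1 the mesothelium-like share was 14.6%, and 8.64% (3.55 to 17.0) after thinning, so the thinned Rrm1 share of undifferentiated cells lay below it and that of NK-like cells within its interval. The thinned Rrm2 share of undifferentiated cells lay below that of mesothelium-like cells, and that of NK-like cells was above it but within its interval. In CPM, Rrm2 of NK-like cells, at 74.7 (66.3 to 83.9), lay above that of mesothelium-like cells, at 14.0 (5.64 to 28.9). Rrm2 of undifferentiated cells, at 18.8 CPM (12.6 to 27.0), overlapped it. Dut was seen in 26.4% of decidual-like, 47.3% of NK-like and 11.4% of undifferentiated stroma-like cells, and thinned in 4.58% of decidual-like (1.70 to 9.70), 24.3% of NK-like (19.3 to 29.9) and 5.77% of undifferentiated stroma-like cells (3.45 to 8.96). A Dut UMI was in 12.4% of mesothelium-like cells, and in 6.17% (2.03 to 13.8) after thinning. The thinned decidual-like share, from 6 of 131 cells, and the thinned undifferentiated share lay within that interval. In CPM, Dut of mesothelium-like cells was at 26.1 (13.9 to 44.6). The Bmp2-rich decidual-like cluster, at 68.0 (52.7 to 86.4), lay above it, and the Bmp2-poor cluster, at 13.1 (4.80 to 28.5), overlapped it.

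The reductase counts were uneven among decidual-like cells. A cell held a median of 2 Rrm2 UMIs, the upper quartile was 7.25, the highest cell held 84, and the 15 cells with most held 56.2% of all Rrm2 UMIs of the class. For Rrm1 the median was 1 UMI and the highest 46. In NK-like cells the median was 0 UMIs for both and the highest cell held 20 of Rrm2 and 22 of Rrm1. After thinning, Rrm1 was seen in 43.5% of the 62 decidual-like cells with Rrm2 (31.0 to 56.7) and in 31.9% of the 69 without (21.2 to 44.2). Tyms, Tk1 or Dut was seen in 9.68% of decidual-like cells with Rrm2 (3.64 to 19.9) and in 5.80% without (1.60 to 14.2), intervals that overlap. In NK-like cells the same share was 61.1% of the 18 cells with Rrm2 (35.7 to 82.7) and 29.7% of the 249 without (24.1 to 35.8), intervals that meet at their ends.

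Between the decidual-like clusters, Rrm2 was 3.19-fold higher (2.64 to 3.87) in the Bmp2-rich cluster, at 875 CPM (818 to 936) against 275 CPM (229 to 327) in the Bmp2-poor cluster. Dut was 5.20-fold higher (2.27 to 14.7), at 68.0 CPM from 67 UMIs against 13.1 CPM from 6 UMIs. After thinning too few Dut UMIs remained to compare, with a UMI in 8.06% of Bmp2-rich cells (2.67 to 17.8) and 1.45% of Bmp2-poor cells (0.0367 to 7.81). Rrm1 was closer, at 390 CPM (352 to 431) against 262 CPM (217 to 313), a ratio of 1.49 (1.21 to 1.84) that missed 2-fold. Rrm2b had 25 against 1 UMI, Dctd 29 against 9, Tyms 18 against 4 and Tk1 6 against 0, all under 50 UMIs. Of the 3 members compared 2 were higher and 0 lower, where 21.5% of all 4261 genes compared were higher and 6.85% lower. The Bmp2-rich cluster was deeper, with a median of 9510 UMIs per cell against 5319 in the Bmp2-poor cluster, and had a median mitochondrial share of 9.83% against 13.9%, and the part of either was not tested. After thinning, 74.2% of Bmp2-rich cells (61.5 to 84.5) and 23.2% of Bmp2-poor cells (13.9 to 34.9) had an Rrm2 UMI, while Rrm1 was in 37.1% of Bmp2-rich and 37.7% of Bmp2-poor cells.

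The proportion of thymidylate to reductase UMIs was low in both decidual-like clusters. Per 100 UMIs of Rrm1 and Rrm2 there were 7.30 of Tyms, Tk1 and Dut (5.84 to 9.04) in the Bmp2-rich and 4.07 (1.93 to 7.60) in the Bmp2-poor cluster. Rrm2 UMIs per Rrm1 UMI were 2.24 (1.99 to 2.54) in the Bmp2-rich and 1.05 (0.811 to 1.36) in the Bmp2-poor cluster. Taken alone against undifferentiated cells, the Bmp2-poor cluster held 14.6-fold more Rrm2 (9.71 to 22.7) and 7.09-fold more Rrm1 (5.13 to 9.90), and 2.67-fold less Dut at a ratio of 0.374 (0.132 to 0.869). In that comparison 4.07% of 6086 genes were higher and 20.7% lower. Against NK-like cells the Bmp2-poor cluster held 3.68-fold more Rrm2 (2.96 to 4.55) and 20.4-fold less Dut, its Rrm1 ratio of 1.75 (1.42 to 2.13) missed 2-fold, Tyms was 4.04-fold lower, Rrm2b stood at 1 UMI against 77 with a ratio of 0.108 (0.00271 to 0.623), and Tk1 at 0 UMIs was at least 7.10-fold lower, taking 3 counts as the limit (the ratio's interval reaches up to 0.175). There 13.4% of 7626 genes were higher and 36.3% lower.

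Among NK-like cells the cell cycle members were concentrated in the granzyme-rich cluster. Rrm1 was 5.12-fold higher (3.41 to 8.07) there than in the granzyme-poor cluster, at 175 against 34.2 CPM. Rrm2 was 8.93-fold higher (4.28 to 22.4), Tyms 9.86-fold (3.30 to 48.4, from 132 against 3 UMIs), Tk1 19.7-fold (5.38 to 164, from 176 against 2) and Dut 6.72-fold (4.75 to 9.82), at 316 CPM in the granzyme-rich and 47.1 CPM in the granzyme-poor cluster. Rrm2b was the exception at a ratio of 0.597 (0.356 to 1.04), and Dctd had 23 against 0 UMIs. Thus 5 of the 6 members compared were higher and 0 lower, where 16.8% of 7014 genes were higher and 13.8% lower. The granzyme-rich cluster had a median of 18532.5 UMIs per cell against 3697 in the granzyme-poor cluster, and thinned to 2000 UMIs 39.6% of its cells (31.5 to 48.1) against 6.50% (2.85 to 12.4) had a Dut UMI.

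Since most NK-like values came from the granzyme-rich cluster, it was also set alone against the Bmp2-rich decidual-like cluster. Rrm2 was 9.82-fold higher (8.57 to 11.3), Dctd 4.01-fold (2.24 to 7.25) and Rrm1 2.22-fold (1.95 to 2.54) in the Bmp2-rich decidual-like cluster. Tk1 was 9.23-fold lower at a ratio of 0.108 (0.0392 to 0.241), Dut 4.65-fold lower at 0.215 (0.165 to 0.275) and Tyms 2.31-fold lower at 0.433 (0.249 to 0.712), and Rrm2b had a ratio of 1.42 (0.848 to 2.31). The members on each side were those of the comparison of whole classes, with 17.2% of 7749 genes higher and 22.6% lower. Set against the granzyme-poor NK-like cluster alone, decidual-like cells held Dut at a log2 ratio of 0.10. Tk1 and Tyms had 2 and 3 UMIs in that cluster, too few to be compared. They stood there at 2.85 and 4.28 CPM, against 4.16 and 15.2 CPM in decidual-like cells. The lower Dut, Tk1 and Tyms of decidual-like cells thus rest on the granzyme-rich cluster.

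How the members moved with replication genes of the same cell was described within classes, in cells thinned to 2000 UMIs and divided by their UMIs of 58 replication genes that include no member. Decidual-like cells held 133 UMIs of Rrm1 and Rrm2 per 100 cells (91.2 to 188) where the replication genes had 0 UMIs (24 cells), 166 (135 to 202) where they had 1 to 2 (59 cells) and 200 (162 to 244) where they had at least 3 (48 cells). NK-like cells held 4.0 (0.484 to 14.4) at 1 to 2 replication UMIs (50 cells) and 31.0 (24.0 to 39.4) at 3 or more (213 cells), and only 4 of them had 0. The reductase pair was thus present in decidual-like cells with no replication UMI among the 2000 drawn, with overlapping intervals between neighbouring bins. Replication UMIs of these cells beyond the 2000 drawn were not counted, so the bin at 0 does not show that a cell lacked replication transcripts. Tyms, Tk1 and Dut together held 0 UMIs per 100 decidual-like cells at 0 replication UMIs (interval up to 15.4), 3.39 (0.411 to 12.2) at 1 to 2 and 25 (12.9 to 43.7) at 3 or more, against 24.0 (12.4 to 41.9) at 1 to 2 and 52.1 (42.9 to 62.8) at 3 or more in NK-like cells. Undifferentiated stroma-like cells had no such order, with 16.1, 9.32 and 9.47 UMIs of the reductase pair per 100 cells in the 3 bins.

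**Figure D4:**
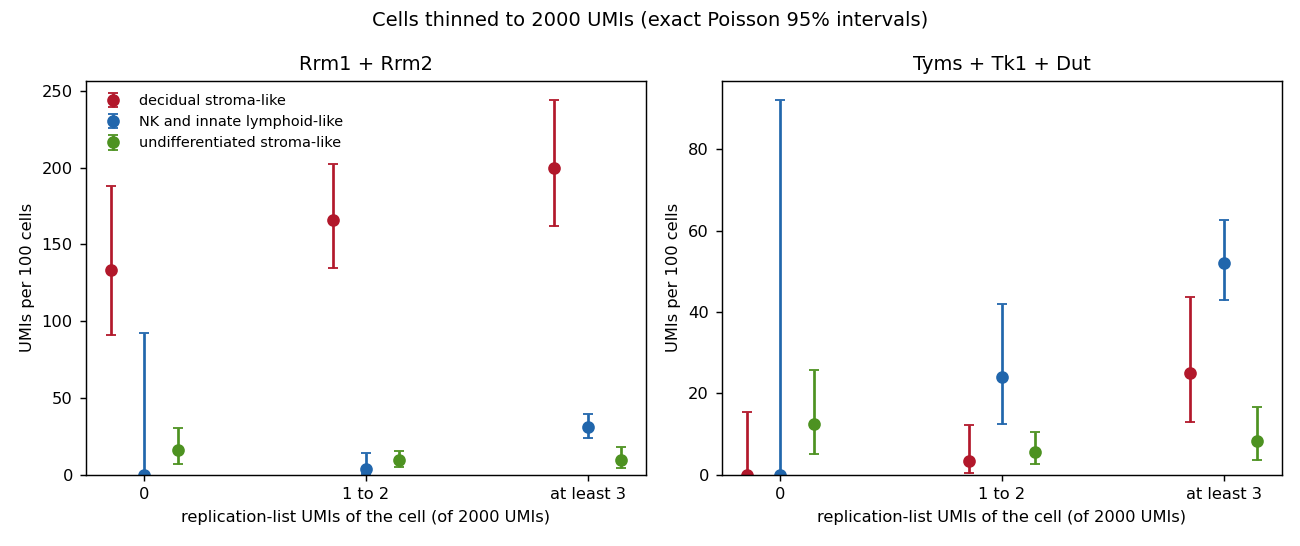
UMIs of Rrm1 and Rrm2 (left) and of Tyms, Tk1 and Dut (right) per 100 cells, in cells thinned to 2000 UMIs and divided by the number of replication-gene UMIs in the same cell, with exact Poisson 95% intervals. Decidual-like cells (red) hold 133, 166 and 200 reductase UMIs per 100 cells in the 3 bins, above NK-like cells (blue) in the bins of 1 to 2 and at least 3, where NK-like cells hold 4.0 and 31.0. The NK-like bin at 0 holds only 4 cells.

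Mitosis genes gave a like picture. Decidual-like cells held 162 reductase UMIs per 100 cells (133 to 196) where 40 mitosis genes had 0 UMIs (66 cells) and 173 (138 to 214) at 1 to 2 (48 cells), with 212 (148 to 293) at 3 or more from only 17 cells. NK-like cells held 5.88 (1.21 to 17.2), 7.38 (3.37 to 14.0) and 59.6 (45 to 77.4) in the same bins. Over the pooled class, the reductase counts of NK-like cells were thus concentrated in cells with several mitosis UMIs. These bins and those by replication genes pool clusters that differ in both quantities. The mitosis list summed to 3260 CPM in the granzyme-rich and 773 CPM in the granzyme-poor NK-like cluster, and the decidual-like clusters differed too. The order within single clusters is not given here.

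The replication genes themselves were lower in decidual-like than in NK-like cells. Of 55 compared, 0 were higher and 44 lower, their median log2 ratio was -1.97, and the lowest ratios were those of the DNA polymerase epsilon gene Pole, at 0.0435 (0.00108 to 0.252) from 1 against 61 UMIs, and the flap endonuclease gene Fen1, 4 against 208 UMIs at a ratio of 0.0510 (0.0138 to 0.133). The summed list stood at 1285 CPM in decidual-like cells, 3851 in NK-like cells and 915 in undifferentiated stroma-like cells. Of 38 mitosis genes compared 1 was higher, the cytokinesis gene Anln at 3.04-fold (1.96 to 4.74), and 22 were lower, with the kinesin gene Kif11 at a ratio of 0.127 (0.0703 to 0.213) and the centromere histone gene Cenpa at 0.169 (0.127 to 0.220). Rrm1 and Rrm2 were thus higher in the class in which no replication gene was higher by the same rule.

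Against undifferentiated cells, mitosis genes were mostly higher in decidual-like cells and replication genes mostly neither higher nor lower. Of 11 mitosis genes compared 9 were higher and 0 lower (median log2 ratio 2.93), led by Anln at 16.8-fold (5.40 to 84.2), from 47 against 3 UMIs, and the kinesin gene Cenpe at 16.3-fold (6.06 to 61.8), from 61 against 4. Of 19 replication genes compared 4 were higher and 0 lower (median 0.21), led by the maintenance methyltransferase gene Dnmt1 at 3.36-fold (2.05 to 5.70) and the helicase subunit gene Mcm4 at 2.85-fold (1.63 to 5.21). Within the decidual-like class the mitosis list summed to 1506 CPM in the Bmp2-rich cluster and 284 CPM in the Bmp2-poor cluster, beside 262 CPM in undifferentiated cells, so the Bmp2-poor cluster held its 7.09-fold more Rrm1 and 14.6-fold more Rrm2 at a mitosis sum near that of undifferentiated stroma.

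Other genes of deoxynucleotide supply and disposal were called about as often as all genes against NK-like cells, with 3 of 20 higher and 4 lower (median log2 ratio -0.38), where 18.7% and 24% of all genes were. Samhd1, the phosphohydrolase that degrades deoxynucleotides, was 13.5-fold higher (10.8 to 17.1) in decidual-like cells, at 317 against 23.5 CPM, and the mitochondrial pyrimidine nucleotide carrier gene Slc25a33 was 8.19-fold higher (5.55 to 12.4). Dck, the deoxycytidine kinase of the salvage route, was the third, at 3.12-fold. The glutaredoxin gene Glrx, whose product can pass electrons to the reductase, was lower at a ratio of 0.0578 (0.0262 to 0.111), and the nucleoside diphosphate kinase gene Nme1 at 0.268 (0.229 to 0.313). Against undifferentiated cells 7 of 17 were higher and 1 lower (median 0.77), where 8.76% of all genes were higher and 18.4% lower. Dck was 6.02-fold higher (4.12 to 9.07), at 125 against 20.7 CPM, and the thioredoxin gene Txn1, the other electron donor of the reductase, 4.64-fold higher (4.08 to 5.30). The nucleoside transporter gene Slc29a1 was the lower one, at a ratio of 0.191 (0.143 to 0.250).

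Folate genes make and carry the methyl group that thymidylate synthase uses. Of 11 compared with NK-like cells 1 was higher, Mthfd2l at 3.23-fold (1.79 to 5.87), and 5 were lower, with Mthfd1l at a ratio of 0.129 (0.0546 to 0.259) and Mthfd2 at 0.157 (0.0867 to 0.265). In that comparison 18.7% of all genes were higher and 24% lower. Of 5 compared with undifferentiated cells 0 were higher and 2 lower, Slc19a1, a folate carrier, at 0.345 (0.198 to 0.580) and Mthfd2l at 0.375 (0.235 to 0.583). There 8.76% of all genes were higher and 18.4% lower. Mthfd2l was therefore on opposite sides in the 2 comparisons, with 19.4 CPM in decidual-like, 6.01 CPM in NK-like and 51.8 CPM in undifferentiated stroma-like cells.

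The ribonucleotides that the reductase uses come from pyrimidine and purine synthesis. Of 8 pyrimidine synthesis genes 0 were higher and 0 lower than in NK-like cells, and of 7 compared with undifferentiated cells 2 were higher, Umps at 2.99-fold (1.85 to 4.98) and Cad at 2.64-fold (1.73 to 4.12), both enzymes of de novo synthesis. Of 19 purine genes 3 were higher and 5 lower than in NK-like cells, shares near the 18.7% and 24% of all genes. The guanine deaminase gene Gda had 109 against 0 UMIs, at least 96.4-fold higher taking 3 counts as the limit, which is not an exact interval. The phosphoribosyl pyrophosphate synthetase gene Prps2 was 11.2-fold higher (9.33 to 13.6). The IMP dehydrogenase gene Impdh1 was at a ratio of 0.161 (0.0998 to 0.248) and the salvage gene Hprt at 0.223 (0.156 to 0.310). Of 20 compared with undifferentiated cells 2 were higher, Prps2 at 5.08-fold (4.18 to 6.22) and Gda at 4.86-fold (3.103 to 7.91), and 3 lower, with Ampd3 at 0.126 (0.0523 to 0.263) and Xdh at 0.134 (0.0554 to 0.280). These counts are near the shares of all genes in that comparison, 8.76% higher and 18.4% lower. Prps2 and Gda were thus higher in decidual-like cells than in either class.

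Regulators of entry into S phase included 4 of 26 higher and 10 lower in decidual-like than in NK-like cells (median -0.24), beside 18.7% higher and 24% lower of all genes and 8.76% and 18.4% against undifferentiated cells. The CDK inhibitor gene Cdkn1c was 79.6-fold higher (26.4 to 393), from 90 against 3 UMIs, and E2f7, an E2F repressor, 5.09-fold higher (3.04 to 8.71). The cyclin D2 gene Ccnd2 was lower, 3 against 367 UMIs at a ratio of 0.0217 (0.00445 to 0.0639), as was Fbxo5, an inhibitor of the anaphase-promoting complex, at 0.179 (0.0701 to 0.381). Against undifferentiated cells 2 of 20 were higher, Cdk6 at 2.84-fold (1.95 to 4.19) and the repressor gene E2f8 at 2.53-fold (1.66 to 3.93), and 4 were lower, with Ccnd2 at 0.0272 (0.00553 to 0.0815) and Rb1 at 0.303 (0.159 to 0.545). Of p53 targets other than Rrm2b, 2 of 15 were higher and 6 lower than in NK-like cells, with the same shares of all genes. Zmat3 at 5.43-fold (3.15 to 9.64) and the repair gene Xpc at 2.35-fold (1.54 to 3.56) were higher, and Btg2 at 0.0908 (0.0657 to 0.123) and the polymerase gene Polk at 0.203 (0.118 to 0.328) had the lowest ratios. Against undifferentiated cells 0 of 13 were higher and 5 lower, with Trp53inp1 at 0.196 (0.160 to 0.239) and Sesn1 at 0.213 (0.161 to 0.278) lowest, beside the Rrm2b ratio of 0.580.

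Across the 20 clusters of at least 20 cells, Pearson's r of log2 levels (CPM plus 5) was 0.81 between Rrm1 and Rrm2, 0.80 between Tyms and Tk1, 0.75 between Tk1 and Dut and 0.68 between Tyms and Dut. It was 0.36 between Rrm2 and Tk1 and -0.62 between Rrm2 and Rrm2b. The clusters share a library and differ in depth and cell number, so these are descriptions with no test. Among 8466 genes with at least 200 UMIs, those most like Rrm1 were Rrm2, Atp1b3 (0.78) and the cohesin protector Sgo1 (0.78), and those most like Rrm2 were Sgo1 (0.82), Rrm1 and the metallothionein gene Mt4 (0.80). Tyms was most like Tipin (0.87), Gmnn (0.87) and Cenpe (0.86), and Tk1 like the histone genes Hist1h3c (0.90) and Hist1h2ap (0.89). Dut was most like Eif2s1 (0.93), Npm1 (0.92) and Lsm6 (0.92), Rrm2b like Prdm4 (0.86), Tbc1d8b (0.82) and Trappc6b (0.81), and Dctd like Mrps9 (0.86), Fubp3 (0.81) and Ddb1 (0.81).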

How the data were processed

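1 droplet library of dissociated mouse uterus was analysed. The deposited values are whole-number UMI counts per gene and barcode, which the authors counted with Cell Ranger (version 4.0.0, per the file headers). Per the submitters' processing notes the genome was mm10. The sources used here do not give the annotation release or how cells were called, and the smallest deposited barcode held 500 UMIs. 40 of 32287 features shared a symbol with another and were summed with it.

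Cells with at least 500 genes and at most 20% mitochondrial UMIs were kept, and Scrublet (expected rate 5%) marked 3 of 1825 (0.164%), so undetected doublets may remain. In scanpy 1.11.5, logs of counts per 10000 in a cell, 2000 variable genes, 30 components, 15 neighbours and Leiden resolution 1 (seed 0) gave 21 clusters. The members and 227 genes of 8 other lists were left out of clustering. Clusters were named by the highest mean of log2(CPM + 5) over 24 sets of 178 markers, and they stayed unnamed with fewer than 3 markers in 10% of cells, low depth without a leading marker, or leading markers of another class. Monocyte, macrophage and dendritic clusters were joined as phagocyte-like. Names may differ from the authors' own.

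Counts were summed per class and given as CPM with exact Poisson intervals. Ratios have exact conditional binomial intervals and shares Clopper-Pearson intervals, all at 95%. Where 1 side had 0 UMIs, the limit of 3 counts over that side was used. The size rule (50 UMIs, 2-fold, interval without 1) was run on all genes. It was also run on simulated Poisson counts, the model that the intervals assume, so spread between cells was not tested. Clusters were compared by Pearson correlation of log2(CPM + 5). With 1 library no significance test was made. Further software was scipy 1.17.1, numpy 2.4.6, scikit-learn 1.9.0, pandas 2.3.3, igraph 0.11.9, anndata 0.12.19, matplotlib 3.10.9 and Python 3.11.15.

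The members and lists were chosen with earlier results of these data known. The text names all members, from each other list and class comparison the 2 top and 2 bottom genes by ratio among those past the size rule, and the 3 genes most like each member, of which 1 is not reported here. Dck against NK-like cells was added after its value was seen.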

Additional observations from a re-analysis of the deposited data

Results flagged for a closer look

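Barcodes outside the analysed cells also held transcripts of the members. The 953 barcodes that failed a filter or were marked as doublets held 2159426 UMIs, with a median mitochondrial share of 24.99% and a median of 1889 UMIs, and a count of 0 over them would allow up to 1.39 CPM. Rrm2 stood at 227 CPM in these removed barcodes (207 to 248) and at 107 CPM in the kept cells. Rrm1 stood at 120 CPM in removed barcodes and 101 CPM in kept cells, Rrm2b at 29.6 CPM in removed barcodes and 25.7 CPM in kept cells, and Dctd at 12.5 CPM in removed barcodes and 11.2 CPM in kept cells. The other thymidylate genes were lower there. Dut stood at 20.4 CPM in removed barcodes and 108 CPM in kept cells, Tyms at 13.9 CPM in removed barcodes and 21.4 CPM in kept cells, and Tk1 at 5.56 CPM in removed barcodes and 16.7 CPM in kept cells. When all barcodes were clustered without filters, the decidual-like clusters held 173 and 148 barcodes, against 77 and 71 cells after filtering, and the unfiltered clusters stood at 788 and 384 CPM of Rrm2. With 1 library there is no control sample to set these values against.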

How the results depend on the processing

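The results were rerun over 17 other settings and 4 splits by cluster added after seeing the data. Of 106 counts of members, 97 stayed within 1.5 times the reported count and 9 did not. Of 263 values of single members 224 moved by less than the counting interval, 37 moved by more and 2 were counted as a change of direction. A change of direction was counted only for members called higher or lower at the reported settings. Sign changes of other members are among the 224 or the 37, such as Rrm1 between the decidual-like clusters, whose lowest log2 ratio was -2.65. Settings that changed only the UMI minimum or the fold limit cannot move a ratio, and their values are among the 224. The doublet, Leiden resolution, Leiden seed and clustering gene settings returned decidual-like clusters of 77 and 71 cells with unchanged Rrm1 and Rrm2 levels. The 224 are thus not independent checks. Rrm2 in decidual-like over NK-like cells ranged in log2 ratio between 1.88 (Bmp2-poor cluster alone) and 6.10 (granzyme-poor NK-like cluster alone) over 21 settings, and Rrm1 between 0.81 and 3.35.

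Against NK-like cells, 1 member instead of 3 was lower after thinning to 2000 UMIs (3 members compared), 0 were lower against the granzyme-poor cluster alone (3 compared), where Dut turned to a log2 ratio of 0.10, and 1 instead of 3 was higher in the Bmp2-poor cluster alone. Against undifferentiated cells, 1 member instead of 0 was lower with each cell weighted equally (called without an interval), at a limit of 1.5-fold and in the Bmp2-poor cluster alone. Between the decidual-like clusters, 1 instead of 2 was higher after thinning. With at least 1000 genes per cell 0 were higher and 2 lower, at a log2 ratio of -4.76 for Rrm2, but other clusters were compared. The naming then put a Nog-rich cluster of 89 cells with 15.2 CPM of Tdo2 and 10.1 CPM of Rrm2 among the decidual-like ones, and it was set against the Bmp2-poor cluster (274 CPM of Rrm2) as 1 of the 2 with most cells, while the Bmp2-rich cluster of 63 cells held 876 CPM. A similar cluster of 110 cells with 15.1 CPM of Tdo2 was so named at a limit of 10% mitochondrial UMIs, where Dut between the clusters compared had a log2 ratio of 0.77. No paired analysis was possible because 1 library was analysed. Depth limits Tk1, Tyms, Dctd and Rrm2b, which fell under 50 UMIs over both sides in at least 1 of the comparisons without NK-like cells.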
